A study of Mus musculus with 16 samples.

Results

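Haematopoietic stem cells (HSCs) hold to their niche through adhesion receptors, and 10 genes for such receptors were followed here: the integrin alpha subunits Itga4, Itga5, Itga6, Itgal and Itgav, the beta subunits Itgb1, Itgb2, Itgb3 and Itgb7, and Cd44. The rule lists them by name, and each name matched 1 row of a count table of 46078 genes. The RNA-Seq experiment asked how the expression profile of HSCs differs between the endosteal and the central bone marrow (BM), and between WT mice and mice that lack Gfra2, a receptor for the neurotrophic factor neurturin. Pools of 30 viable cells with the surface phenotype Lin- Sca1+ cKIT+ CD48- CD150+ were sorted from tibia, femur and humeri of untreated C57/Bl6 mice, and Smart-seq2 libraries were made from each pool. Cells called endosteal came from the bone fraction and cells called central from the marrow fraction.

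WT mice gave 4 endosteal and 4 central libraries, and mice with the genotype Gfra2 KO (written Gfra2-/-) gave 4 endosteal and 3 central libraries. The labels give neither the age of the mice nor the number of mice behind each pool, so the p-values measure the spread between these pools, which may be partly technical. The genotype belongs to the whole mouse, and a difference between genotypes therefore cannot be assigned to HSCs or to the cells around them. Libraries are named A to D within a group, and the sources used here do not say whether equal letters share a preparation. Reads counted on genes ranged from 4416648 to 14003634 in the endosteal WT libraries, from 826487 to 3367289 in the central WT libraries, from 8519094 to 18550008 in the endosteal libraries labelled Gfra2-/- and from 7649803 to 14716308 in the central ones. Each central WT library was thus shallower than every library of the other groups, and 3 reads, the floor used here for detection, stood for 0.933 to 4.02 CPM (counts scaled to a common library size) there and for 0.151 to 0.731 CPM elsewhere. These limits cover counting error only, since Smart-seq2 reads carry no molecular identifiers.

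The targeted gene was examined first. Of the WT libraries, those from endosteal BM held 0, 0, 0 and 1 reads of Gfra2 and those from central BM 0, 0, 4 and 0, so WT HSCs nearly lacked it too. Among libraries labelled Gfra2-/-, the counts were 2, 47, 1 and 9 for endosteal pools A to D and 0, 1 and 0 for central pools. Endosteal libraries B and D thus held the highest counts, among 18550008 and 11985523 reads on genes. The 4 reads in central WT library C were among 826487. The sources used here do not say which exons the allele lacks, so these counts cannot settle the genotype of a library. Estimates named for single genes that use endosteal libraries B and D are given with and without them, and the text speaks of libraries labelled Gfra2-/-. In addition, the last library of each group (D, or C in the central group labelled Gfra2-/-) had under 0.5% of its reads on spike-in RNAs, against 0.764% to 7.10% in the other 11 libraries. The sources used here do not say whether these 4 were prepared together; with this split as a term of the fit, 0 members were called by edgeR in any comparison.

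Integrins are pairs of an alpha and a beta subunit that span the membrane and tie matrix proteins or ligands on neighbouring cells to the actin cytoskeleton. In HSCs, the pairs that contain the Itgb1 product bind fibronectin, laminin and VCAM-1, and they are known for homing to and retention in the BM. Cd44 encodes the main receptor for hyaluronan, a matrix sugar of the endosteum, and it also binds osteopontin. The labelled cell type was checked on 10 genes of the sort and of HSCs, among them Kit, Ly6a (Sca1), Slamf1 (CD150) and Procr, which summed to between 1952 and 4073 CPM in the 15 libraries. Cd48, which the sort selects against, ranged from 0 to 161 counts.

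Levels were first compared between genes as CPM per kb of exon, since a longer gene yields more reads. Over the 15 libraries, the median level was 55.1 CPM per kb for Itgb1, 37.8 for Cd44, 22.0 for Itga6 and 12.2 for Itga4. It was 8.71 for Itgb2, 7.71 for Itgb3, 7.60 for Itga5, 5.94 for Itgb7, 3.87 for Itgav and 0 for Itgal. Itgb1 had the highest mean in each of the 4 groups, with 55.4 ± 6.94 CPM per kb (SD, n = 4) and 46.7 ± 21.0 (SD, n = 4) for WT HSCs of endosteal and central BM, and with 75.8 ± 14.6 (SD, n = 4) and 41.9 ± 12.0 (SD, n = 3) in the endosteal and central libraries labelled Gfra2-/-. Cd44 was next in every group but the last, where Itgb7 came between them at 39.7 ± 42.3 CPM per kb (SD, n = 3). Neighbours in this order mostly had overlapping values: among WT libraries, the single gap without overlap was between Itga5 and Itgal in the endosteal group. In the endosteal libraries labelled Gfra2-/-, Itgb1 did not overlap Cd44, and Cd44 did not overlap Itgb7. In the central ones, Itga6 did not overlap Itgb2.

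**Figure D1:**
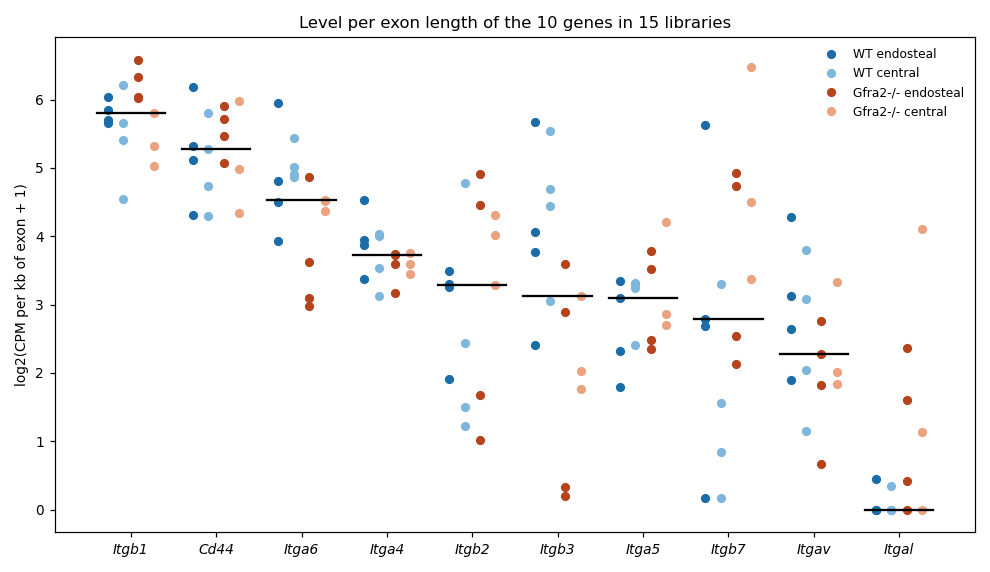
Level of the 10 genes as log2(CPM per kb of exon + 1) on the vertical axis, with 1 point per library, coloured by group, and a bar at the median of the 15 libraries. Itgb1 and Cd44 lead the order, and Itgal sits at 0 in 8 libraries.

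The genes also differed in how evenly the pools expressed them. The SD of log2(CPM + 1) over all 15 libraries was 0.39 for Itga4, 0.53 for Itgb1, 0.64 for Cd44, 0.72 for Itga5 and 0.85 for Itga6, against 1.24 for Itgav, 1.498 for Itgb2, 2.14 for Itgb3, 2.15 for Itgal and 2.28 for Itgb7. Itga6, next to Cd44 in level, ranged from 62.1 to 549 CPM, while Itgb3, Itgb7 and Itgal ranged from near absence to 294, 244 and 107 CPM, respectively. Since each pool was bulk RNA of 30 cells, fewer cells that express a gene and less RNA per cell cannot be told apart.

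**Figure D2:**
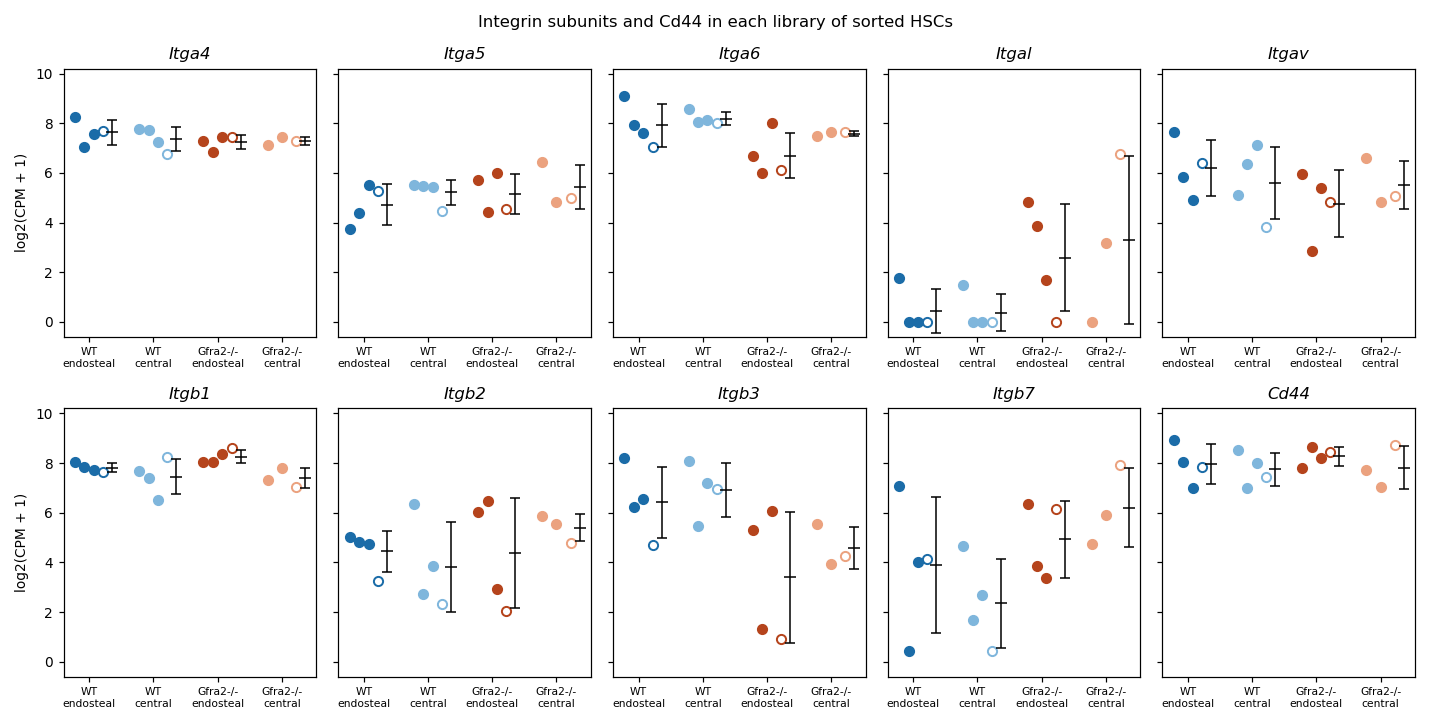
Level of each gene as log2(CPM + 1) on the vertical axis, with 1 point per library in the 4 groups of the horizontal axis; open points are libraries with under 0.5% spike-in reads, and the bar beside each group is its mean ± SD. Itga4 and Itgb1 stay within narrow bands, and Itgb3 and Itgb7 spread widely within groups, and Itgal does so in the groups labelled Gfra2-/-.

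Among alpha subunits, Itga4 (chr2:79255426-79333123, + strand, GRCm38), the alpha chain of the receptor for VCAM-1 and fibronectin, was the most even. It measured 308, 130.3, 191 and 202 CPM in endosteal WT HSCs and 215, 209.9, 149 and 108 CPM in central WT HSCs. In libraries labelled Gfra2-/-, it measured 154.03, 112, 171 and 172 CPM (endosteal) and 138, 174 and 154.1 CPM (central). All 4 groups overlapped, and the largest of the 4 fitted differences was the endosteal one between genotypes, with a log2 fold change of -0.44 (SE 0.31, adjusted p = 0.833 by the quasi-likelihood test of edgeR) and of -0.35 without libraries B and D. Itga4 shares 1124 exonic bases with Cerkl on the opposite strand, and reads were counted without regard to strand; Cerkl itself had between 3 and 361 counts.

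Itga6 (chr2:71745616-71858416, + strand), the laminin receptor chain that is also a classical stem cell marker (CD49f), was the highest per kb of the 5 alpha subunits Itga4, Itga5, Itga6, Itgal and Itgav in 12 of 15 libraries, and Itga4 was in the other 3; Itga2b was not among those ranked. It measured 549, 243, 195 and 129 CPM in endosteal and 381, 262, 282 and 254 CPM in central WT HSCs. Libraries labelled Gfra2-/- measured 102, 62.1, 254 and 68.5 CPM (endosteal) and 178, 197 and 199 CPM (central). The 3 central libraries labelled Gfra2-/- all lay below the 4 central WT libraries, while the endosteal groups overlapped through library C at 254 CPM. The log2 fold change between genotypes was -0.65 (SE 0.33, adjusted p = 0.612, edgeR) in central and -1.19 (SE 0.56, adjusted p = 0.741) in endosteal HSCs, and neither passed. Without endosteal libraries B and D, the endosteal estimate was -0.65, and with each library left out in turn it ran from -1.84 to -0.65.

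Itga5 (chr15:103344286-103366763, - strand), the fibronectin receptor chain, was lower in level, at 12.2, 19.7, 45.2 and 37.5 CPM in endosteal and 44.4, 43.2, 41.6 and 21.2 CPM in central WT HSCs. In libraries labelled Gfra2-/- it measured 51.8, 20.2, 62.7 and 22.5 CPM (endosteal) and 86.4, 27.3 and 31.1 CPM (central). Every pair of groups overlapped, and the 4 fitted differences lay between -0.41 (SE 0.74) and 0.46 (SE 0.65) on the log2 scale. The latter, between genotypes in endosteal HSCs, was 0.99 without libraries B and D.

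Itgav (chr2:83724397-83806916, + strand) encodes the alpha chain of the vitronectin and osteopontin receptors. It measured 199, 56.6, 29.3 and 83.0 CPM in endosteal and 33.5, 80.2, 138 and 13.1 CPM in central WT HSCs, and 61.7, 6.26, 41.5 and 27.2 CPM and 97.0, 27.6 and 32.5 CPM in the endosteal and central libraries labelled Gfra2-/-. The groups overlapped throughout. The endosteal difference between genotypes was -1.42 (SE 0.75, adjusted p = 0.757, edgeR) and -0.83 without libraries B and D. It ran from -1.89 to -0.73 with each library left out in turn. Itgav shares 634 of its 10744 exonic bases with the antisense transcript Gm13684, which had 0 to 658 counts.

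Itgal (chr7:127296260-127335138, + strand), the alpha chain of the leukocyte integrin LFA-1, stood apart from the other members. Its counts were 10, 0, 0 and 0 for endosteal WT pools and 2, 0, 0 and 0 for central WT pools, yet 403, 267, 19 and 0 counts in the endosteal and 0, 84 and 831 counts in the central libraries labelled Gfra2-/-. Thus 5 of 7 libraries labelled Gfra2-/- and 1 of 8 WT libraries were above the floor of 3 counts, and a library at 0 was present in every group. In the endosteal comparison the fitted difference was 4.27 on the log2 scale with an SE of 2.31 (adjusted p = 0.757, edgeR); its size depends on 1 WT library, since it was 10.15 without WT library A. Without endosteal libraries B and D labelled Gfra2-/- it was 4.72. Itgal did not pass the filter on low counts in the central comparison or between the WT compartments, and no fold is given there. In the central comparison the WT libraries were the shallower ones, with floors up to 4.02 CPM, and 2 of the 3 libraries labelled Gfra2-/- (7.94 and 107 CPM) exceeded that floor.

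Itgb2 (chr10:77530252-77565708, + strand), the partner of Itgal in LFA-1, was detected in all 15 libraries. It measured 31.2, 27.0, 26.1 and 8.43 CPM in endosteal and 80.6, 5.60, 13.4 and 4.04 CPM in central WT HSCs, and 64.1, 88.6, 6.71 and 3.15 CPM and 57.4, 46.4 and 26.6 CPM in the endosteal and central libraries labelled Gfra2-/-. All groups overlapped. Without central WT library A, the highest of its group, the central difference between genotypes moved from 0.72 (SE 1.07) to 2.52 on the log2 scale, and its adjusted p was 0.475 (edgeR).

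Because Itgal and Itgb2 are leukocyte genes, markers of mature blood cells were summed beside them. The 6 T cell markers summed to 98.2 CPM in the central library B labelled Gfra2-/-, with 5 of the 6 detected, Trbc1 the most abundant at 61.7 CPM and Cd4 at 0, and to at most 0.933 CPM in each of the other 14 libraries. The central library C labelled Gfra2-/-, which held the most Itgal, had 0.257 CPM of T cell markers and 323 CPM of the 5 B cell markers. The B cell sum was highest in the endosteal library D labelled Gfra2-/- (1863 CPM), where Itgal was at 0, and it was 418 CPM in the central WT library D, where Itgal was also at 0. Neutrophil markers summed to 3221 CPM in that WT library, led by S100a8 at 864 CPM with Mpo and Elane at 0, and to at most 14.9 CPM in the other 14. Macrophage markers summed to at most 50.7 CPM and stromal markers to at most 52.6 CPM in any library. Endothelial markers were led by Tie1 in most libraries, with the defining gene Cdh5 at 0 in all 15. They summed to 330 to 459 CPM in endosteal and 519 to 777 CPM in central WT HSCs, without overlap, and to 246 to 447 CPM and 413 to 712 CPM in the endosteal and central libraries labelled Gfra2-/-. The Lin- gate of the study uses CD11b, Gr1, Ter119, B220 and CD3e, and so selects against mature blood cells. The part of any of the cells above in the Itgal and Itgb2 values was not tested.

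Itgb1 (chr8:128685654-128733200, + strand), the common partner of Itga4, Itga5 and Itga6, was the highest per kb of the beta subunits Itgb1, Itgb2, Itgb3 and Itgb7 in 13 of 15 libraries; Itgb3 and Itgb7 were each highest in 1. It measured 264, 232, 208 and 201 CPM in endosteal and 202, 170.1, 91.2 and 299 CPM in central WT HSCs. In libraries labelled Gfra2-/- it measured 265, 260.3, 325 and 387 CPM (endosteal) and 158, 225 and 129 CPM (central). All endosteal libraries labelled Gfra2-/- were therefore above all central ones of that label, whereas the WT compartments overlapped. The difference between compartments in libraries labelled Gfra2-/- was 0.86 on the log2 scale (SE 0.29, a 1.81-fold difference), with an adjusted p of 0.922 over 13860 genes (edgeR). It was 0.79 without endosteal libraries B and D, 0.58 when libraries low in spike-in RNA were left out, and between 0.69 and 1.12 with each library left out in turn. In WT HSCs the corresponding value was 0.22 (SE 0.38), and the difference between these compartment effects was 0.61 (SE 0.48, adjusted p = 0.826, edgeR), or 0.51 without endosteal libraries B and D. It turned to -0.068 when libraries low in spike-in RNA were left out.

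Itgb3 (chr11:104608000-104670476, + strand) pairs with Itgav and with Itga2b, the platelet integrin chain that stem cells also carry. In WT HSCs it measured 294, 74.5, 92.6 and 25.4 CPM (endosteal) and 269.8, 42.9, 146 and 122 CPM (central). In libraries labelled Gfra2-/- it measured 38.1, 1.51, 65.4 and 0.876 CPM (endosteal) and 45.5, 14.2 and 18.2 CPM (central). The genotypes overlapped in both compartments. Of the endosteal libraries labelled Gfra2-/-, B and D lay below all WT values, while A (38.1 CPM) and C (65.4 CPM) were above WT library D (25.4 CPM). In central HSCs the sole overlap was library A (45.5 CPM) against WT library B (42.9 CPM), and the others so labelled lay below all WT values. The log2 fold change between genotypes in central HSCs was -2.51 (SE 0.73, a 5.70-fold difference), with an adjusted p of 0.321 by edgeR, while DESeq2 gave -2.62 with an adjusted p of 0.0278. In endosteal HSCs it was -2.19 (SE 1.22, adjusted p = 0.767, edgeR), and DESeq2 gave an adjusted p of 0.414.

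The endosteal value leaned on the libraries with the highest Gfra2 counts, since B and D held the lowest Itgb3 values, and the estimate was -1.23 without them. It was -1.29 without WT library A, the highest of its group. In central HSCs, leaving out each library in turn gave -3.18 to -2.02, and the estimate was -1.71 when the shallow WT libraries A and C were left out. The partner Itga2b measured 72.4, 82.1, 119 and 36.1 CPM in central WT HSCs and 95.9, 60.0 and 125 CPM in the central libraries labelled Gfra2-/-, with a fitted difference of 0.26 (SE 0.57). Megakaryocyte markers varied between pools as well. The 6 genes include Itga2b, the most abundant in most libraries. They summed to 46.8 to 234 CPM in central WT libraries and to 209.1 to 311 CPM in the central libraries labelled Gfra2-/-. Of the 4 tested between genotypes in central HSCs, 3 had positive estimates and 1 was negative, and 0 passed by edgeR. DESeq2 called Pf4 and Gp9, where it called 5.14% of all genes. Pf4 measured 10.9, 6.22, 1.34 and 0.674 CPM in central WT HSCs and 45.3, 205 and 24.8 CPM in those labelled Gfra2-/-, without overlap. Gp9 measured 1.81, 15.5, 8.04 and 8.43 CPM against 30.0, 40.2 and 58.8 CPM, also without overlap. The part of megakaryocyte markers in the Itgb3 values was not tested.

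Itgb7 (chr15:102215995-102231944, - strand), the gut-homing partner of Itga4 that binds MAdCAM-1, was the most variable member. It measured 134, 0.333, 14.99 and 16.4 CPM in endosteal and 24.4, 2.18, 5.36 and 0.337 CPM in central WT HSCs, which stand for 27, 7, 4 and 1 counts in the latter. In libraries labelled Gfra2-/- it measured 81.8, 13.4, 9.37 and 70.9 CPM (endosteal) and 26.1, 59.9 and 244 CPM (central). The 3 central libraries labelled Gfra2-/- lay above all central WT libraries, by a narrow margin between 24.4 and 26.1 CPM, while the endosteal groups overlapped widely.

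The central difference of Itgb7 was 3.81 on the log2 scale (SE 1.22, a 14.0-fold difference), with an adjusted p of 0.370 by edgeR, and DESeq2 gave 3.69 with an adjusted p of 0.0761. It depended on single libraries: it was 2.40 without library C labelled Gfra2-/-, 5.62 without WT library A, and 1.97 without both libraries that were low in spike-in reads. With the share of spike-in reads as a term it was 3.35. Markers of lymphocytes, which carry this integrin, did not follow it in every library. Library C, with 244 CPM of Itgb7, held 323 CPM of B cell markers, and library B, with 59.9 CPM, held 98.2 CPM of T cell markers. The endosteal library D labelled Gfra2-/-, with 70.9 CPM, held 1863 CPM of B cell markers, and the central WT library D, with 0.337 CPM, held 418 CPM. The endosteal WT library A, with 134 CPM of Itgb7, held 34.1 CPM of B cell and 0.487 CPM of T cell markers, and the endosteal library A labelled Gfra2-/-, with 81.8 CPM, held 33.8 CPM and 0 CPM. The Lin- gate selects against B and T cells, and the part of lymphocytes in the Itgb7 values was not tested. In endosteal HSCs the corresponding value was 0.10 (SE 1.27), and 0.16 without libraries B and D. The test of the difference between these genotype effects gave -3.74 (SE 1.90, adjusted p = 0.713, edgeR), and -3.73 without endosteal libraries B and D. With each library left out in turn, this difference ran from -5.55 to -1.77. Between the WT compartments, the estimate of 2.37 (SE 1.505) was 0.35 without WT endosteal library A.

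**Figure D3:**
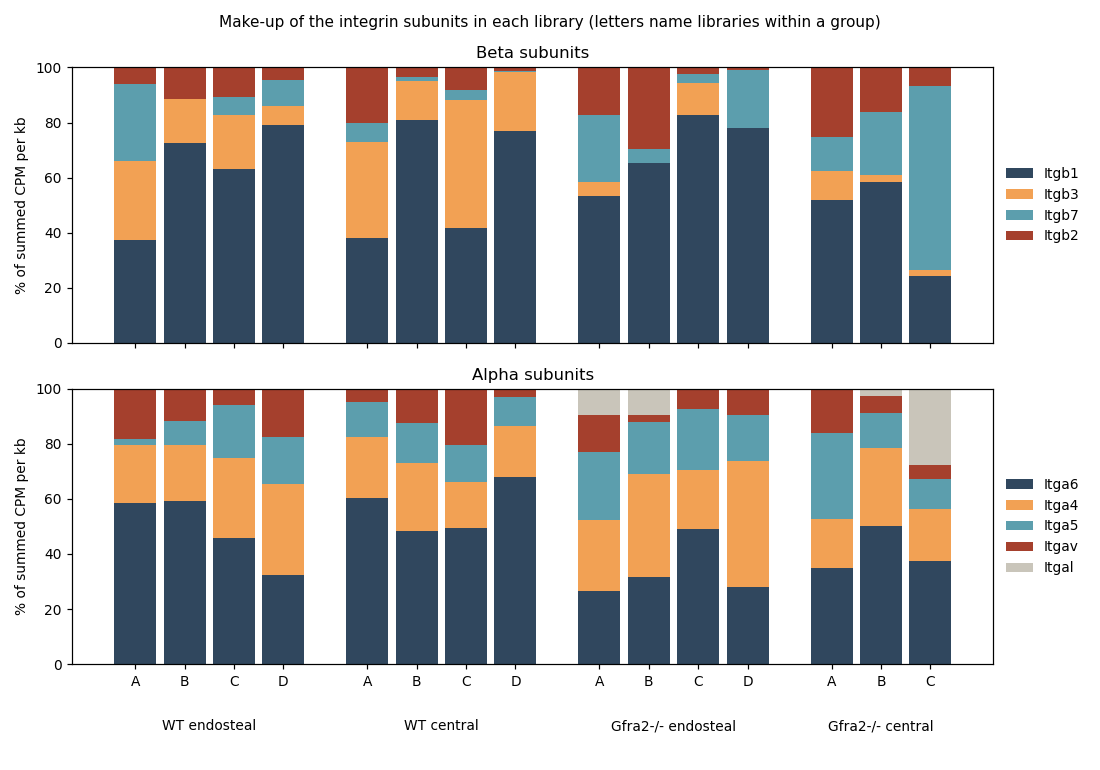
Share of each subunit in the summed CPM per kb of the 4 beta subunits (upper panel) and of the 5 alpha subunits (lower panel), in percent, with 1 bar per library. Itgb1 takes the greatest part of the beta subunits in 13 of 15 libraries, and Itgb7 takes 66.9% in the central library C labelled Gfra2-/-.

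As a share of the 4 beta subunits per kb, Itgb3 made up 17.8% ± 9.04 (SD, n = 4) and 29.3% ± 14.3 (SD, n = 4) for WT HSCs of endosteal and central BM, and 4.29% ± 5.37 (SD, n = 4) and 5.07% ± 4.54 (SD, n = 3) in the endosteal and central libraries labelled Gfra2-/-. Itgb7 made up 11.1% ± 11.9 (SD, n = 4) and 3.01% ± 2.89 (SD, n = 4) for WT HSCs of endosteal and central BM, and 13.4% ± 10.7 (SD, n = 4) and 34.2% ± 28.8 (SD, n = 3) in the endosteal and central libraries labelled Gfra2-/-. The last mean rested on library C and was 17.8% without it. Itgb1 kept shares of 63.1% ± 18.3, 59.3% ± 22.6, 69.8% ± 13.3 and 44.8% ± 18.2 in the 4 groups, in the same order as above. Shares within a library depend on each other, so these values describe the same differences and add no test.

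Cd44 (chr2:102811141-102901665, - strand) was high in every pool. It measured 488, 265, 128 and 228 CPM in endosteal and 372, 127, 256 and 174 CPM in central WT HSCs, and 221, 400.0, 293 and 348 CPM and 208, 129.9 and 422 CPM in the endosteal and central libraries labelled Gfra2-/-. The groups overlapped in all comparisons. The 4 fitted differences lay between 0.11 (SE 0.49) and 0.32 (SE 0.41) on the log2 scale, with adjusted p-values of 0.920 or more by edgeR. The latter, between compartments in libraries labelled Gfra2-/-, was 0.023 without endosteal libraries B and D. The table counts reads per gene, and the splice variants of Cd44 were not analysed here.

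By count, 0 of 9 members tested passed an adjusted p of 0.1 by edgeR between the WT compartments, where 0 of 11181 genes did. Without adjustment, 0 members and 882 genes (7.89%) were under 0.05, and DESeq2 called 0 members and 606 genes (4.49%). Between the compartments in libraries labelled Gfra2-/-, 0 of 10 members and 0 of 13860 genes passed by edgeR; 1 member (Itgb1) and 664 genes (4.79%) were under 0.05 unadjusted, and DESeq2 called 0 members and 395 genes (2.75%). The medians of the members were 0.22 and -0.19 on the log2 scale in these comparisons, beside medians of all genes of 0.03 and 0.03.

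Between genotypes in endosteal HSCs, 0 of 10 members and 0 of 12970 genes passed by edgeR, 0 members and 868 genes (6.69%) were under 0.05 unadjusted, and DESeq2 called 0 members and 534 genes (3.71%). In central HSCs, 0 of 9 members passed by edgeR, where 6 of 11772 genes (0.0510%) did; 2 members (Itgb3 and Itgb7) and 1028 genes (8.73%) were under 0.05 unadjusted, and DESeq2 called these 2 members among 725 genes (5.14%). For the interaction of genotype and compartment, 0 of 10 members and 0 of 15416 genes passed by edgeR, with 0 members and 1074 genes (6.97%) under 0.05 unadjusted, and DESeq2 called 0 members and 243 genes (1.68%). The medians of the members were 0.15 and -0.16 for the genotype comparisons, in the same order, again beside 0.03 for all genes.

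Groups without any overlap in CPM were found for 1 member (Itgb1) between the compartments in libraries labelled Gfra2-/-, where 7.34% of all genes tested had none, and for 2 members (Itga6 and Itgb7) between genotypes in central HSCs, where 12.4% had none. None of the members was without overlap in the other 2 comparisons, with 6.36% of genes between the WT compartments and 6.24% between genotypes in endosteal HSCs. An absolute log2 fold change of at least 1 was seen for 1 of 9 members between the WT compartments (30.0% of genes), 2 of 10 in libraries labelled Gfra2-/- (24.9%), 4 of 10 in endosteal HSCs (25.7%) and 2 of 9 in central HSCs (34.9%). Positive estimates were given by 5 of 9 members between the WT compartments (51.5% of genes), 3 of 10 between the compartments in libraries labelled Gfra2-/- (51.6%), 6 of 10 in endosteal HSCs (51.5%), 4 of 9 in central HSCs (51.4%) and 5 of 10 in the interaction (46.3%), where 3 of 10 had an absolute value of at least 1 (49.0%). The 4 comparisons share groups of libraries, so their values are not independent of each other.

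**Figure D4:**
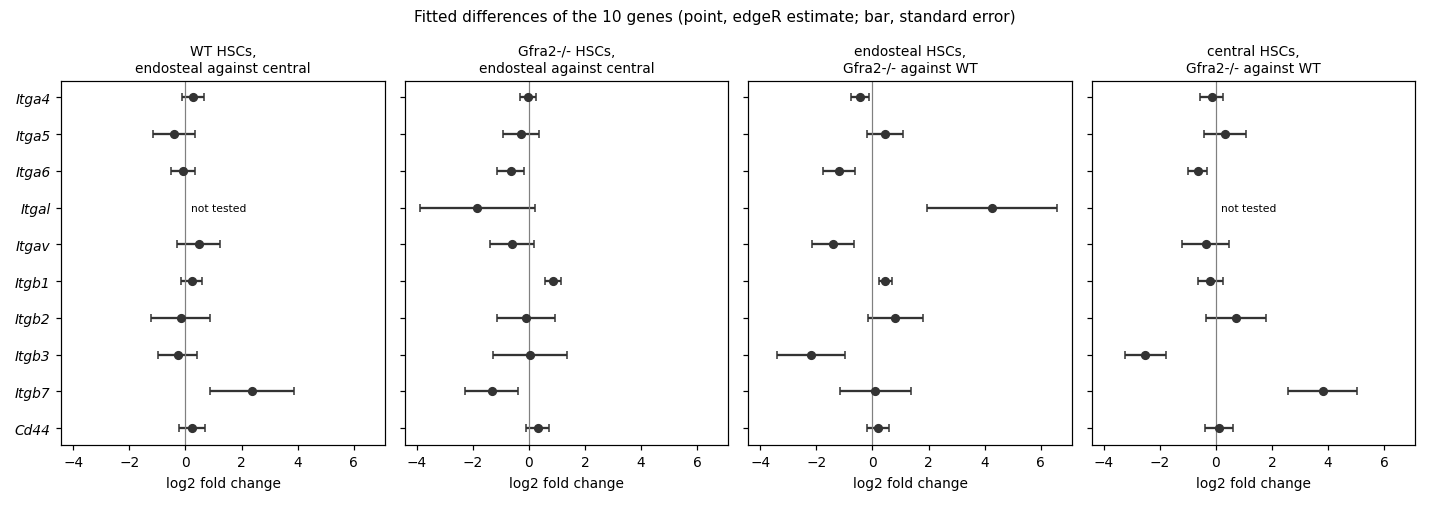
Fitted log2 fold change (horizontal axis) of the 10 genes in the 4 comparisons, with 1 point per gene and a bar of 1 SE on either side; positive values are higher in the first group named. Itga4, Itgb1 and Cd44 sit within 1 log2 unit of 0 in all comparisons, and Itgb3 and Itgb7 lie farthest from 0 among the genes tested in central HSCs. Itgal was not tested by edgeR in central HSCs or between the WT compartments.

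The rest of the integrin and Cd44 machinery was read from 6 lists with 119 genes. Of these, 70 to 77 passed the filter on low counts in the 4 comparisons, and 0 passed an adjusted p of 0.1 by edgeR in any of them or in the interaction. Without adjustment, 3 were under 0.05 with higher and 4 with lower values in endosteal WT HSCs, against 882 of 11181 genes (7.89%), and 1 and 3 in the compartments of libraries labelled Gfra2-/- (background 4.79%). Between genotypes, 1 was higher and 4 were lower in endosteal HSCs (background 6.69%), and 4 were higher and 3 lower in central HSCs (background 8.73%). DESeq2 called 5 list genes between the WT compartments (Itgam, Itgb6, Rassf5, Crkl and Icam4), 2 between the compartments in libraries labelled Gfra2-/- (Rapgef1 and Alcam), 4 between genotypes in endosteal HSCs (Itgb5, Srgn, Spp1 and Alcam) and 5 in central HSCs (Itgam, Vasp, Icam4, Selp and Cd151), where it called 4.49%, 2.75%, 3.71% and 5.14% of all genes. Some of these calls rested on few reads or libraries. Itgam had 1, 1, 0 and 2 counts in endosteal and 3, 9, 1 and 3 in central WT libraries. Itgb6 had 206, 333, 1 and 0 against 0 in each central WT library. Itgb5 had 106, 3, 131 and 0 counts in endosteal libraries labelled Gfra2-/- against 0 in each endosteal WT library. The list genes that DESeq2 tested were not counted, so their share cannot be set beside the background. In the interaction DESeq2 called 2 (Icam4 and Cxcr4, background 1.68%). The genes described next followed a fixed rule on p and level, and the others of these were named after their values were seen.

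By list, the medians of the 18 activation genes and 23 adhesion complex genes lay between -0.08 and 0.23 on the log2 scale in the 4 comparisons, beside 0.03 for all genes. The list of 27 other genes of niche adhesion holds receptors and the intracellular GTPases Cdc42, Rac1, Rac2 and Rhoa; between the WT compartments 26 were tested, with 21 positive and 5 negative estimates (51.5% of all genes were positive) and a median of 0.34, and 1 of them was under 0.05 unadjusted. This list had 13 positive and 13 negative estimates between the compartments in libraries labelled Gfra2-/-, 12 and 14 between genotypes in endosteal HSCs, 18 and 7 in central HSCs, and 7 and 19 in the interaction, with a median of -0.52 there beside -0.12 for all genes. Of the 14 Cd44 partners, 7 were tested between genotypes in central HSCs, with 1 positive and 6 negative estimates and a median of -0.52, and 0 were under 0.05 unadjusted by edgeR or called by DESeq2. Their positive and negative estimates numbered 3 and 4 between the WT compartments, 6 and 2 between the compartments in libraries labelled Gfra2-/-, 4 and 3 between genotypes in endosteal HSCs, and 4 and 4 in the interaction. Among the 20 integrin ligands, 4 to 6 passed the filter in the 4 comparisons, and among the 17 other subunits, 2 to 6 did.

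Most of the 17 other integrin subunits were rare or absent. Itgb8 had no count in any library, and Itgam, the macrophage and neutrophil chain that pairs with Itgb2, had at most 9 counts. The exception was Itga2b, detected in every library at 36.1 to 246 CPM with a median of 17.6 CPM per kb, above Itga4 and below Itga6. Those with the smallest p by edgeR were Itga9 (2.94, SE 1.67, adjusted p = 0.661, between genotypes in central HSCs) and Itgb4 (-2.15, SE 1.52, adjusted p = 0.999, between compartments in libraries labelled Gfra2-/-, and -2.18 without endosteal libraries B and D). Itga9, which pairs with Itgb1, had 0, 22, 0 and 0 counts in the central WT libraries and 170, 64 and 211 counts in the deeper central libraries labelled Gfra2-/-.

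Integrins are switched to their binding state from inside the cell by talin and kindlin, which the small GTPase Rap1 recruits. RNA of each of the 3 was present in HSCs. Per kb, the medians were 90.7 CPM for Rap1b, 46.2 for the talin gene Tln1 and 41.8 for the blood cell kindlin Fermt3, while Fermt1, Fermt2 and Tln2 had a median of 0. Rassf5, which encodes the Rap1 effector RAPL, a partner of the LFA-1 alpha chain, measured 45.6, 16.3, 20.6 and 94.4 CPM in endosteal and 303, 339, 121 and 237 CPM in central WT HSCs. The 4 endosteal WT libraries were all below the 4 central ones. The difference was -2.52 (SE 0.59, adjusted p = 0.343 by edgeR and 0.00766 by DESeq2). The summed endothelial markers were likewise lower in every endosteal than in every central WT library. This sum was led by Tie1, Egfl7 or Emcn in each WT library, and the defining gene Cdh5 was at 0 in all of them. The part of these markers in the values of Rassf5, and of Lyn and Rdx below, was not tested.

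In libraries labelled Gfra2-/-, Rassf5 measured 99.8, 76.7, 143 and 254 CPM (endosteal) and 224, 214 and 133 CPM (central), with a difference of -0.41 (SE 0.43), of -0.65 without endosteal libraries B and D, and of -1.03 (SE 0.36) without the libraries low in spike-in RNA. The interaction gave 2.09 (SE 0.78, adjusted p = 0.586, edgeR), and 1.81 and 2.16 without these sets of libraries. Rapgef1, an exchange factor that loads Rap1 with GTP, measured 30.1, 62.0, 77.1 and 30.4 CPM in endosteal and 189.5, 78.8 and 184 CPM in central libraries labelled Gfra2-/-, again without overlap (-1.59, SE 0.48, adjusted p = 0.896 by edgeR and 0.0994 by DESeq2; -1.49 without libraries B and D).

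Of the genes for proteins that link bound integrins to actin, the blood cell parvin Parvg led at a median of 45.5 CPM per kb. Zyx, Lims1, Pxn and Tns1 had counts in every library, at medians of 42.0, 32.5, 7.53 and 6.83 CPM per kb. The focal adhesion genes Ilk, Parva, Lims2 and Bcar1 were at 0 in 13 or more of 15 libraries. Exons shared with other genes were looked up for the members only, and ambiguous reads were not counted. These zeros therefore cannot show that the RNA was absent. Vasp, an actin polymerisation factor, measured 73.3, 83.0, 213 and 173 CPM in central WT HSCs and 41.2, 50.3 and 33.8 CPM in central libraries labelled Gfra2-/-, with no overlap (-1.73, SE 0.57, adjusted p = 0.387 by edgeR and 0.0481 by DESeq2). The kinase gene Lyn measured 35.8, 73.7, 28.2 and 17.0 CPM in endosteal and 152, 23.9, 244 and 181 CPM in central WT HSCs, with overlap through central library B (-1.98, SE 0.69, adjusted p = 0.508, edgeR).

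Among Cd44 partners, the linkers to actin were present in every library, at medians of 59.9 CPM per kb for Msn, 45.6 for Rdx and 21.2 for Ezr, and the hyaluronan synthase genes Has1, Has2 and Has3 had medians at or near 0. The highest was Srgn, which encodes the proteoglycan serglycin, a Cd44 ligand, at a median of 430.3 CPM per kb. Srgn measured 1398, 1343, 1371 and 1186 CPM in endosteal WT HSCs and 931, 885, 986 and 945 CPM in the endosteal libraries labelled Gfra2-/-. These groups did not overlap, and the difference was -0.50 (SE 0.16, adjusted p = 0.704 by edgeR and 0.0233 by DESeq2), or -0.47 without libraries B and D. Rdx measured 112, 161, 239.8 and 149 CPM in endosteal and 318, 333, 304 and 214 CPM in central WT HSCs (-0.84, SE 0.34, adjusted p = 0.586, edgeR).

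Ligands of the integrins were mostly low in the sorted cells: Madcam1, Vtn, Fga, Fgb, Nid1 and Cdh1 had no count in any library, and the medians of Vcam1 and Fn1 were 0.0676 and 1.22 CPM. Fn1 was above 0 in 12 of 15 libraries and reached 516 CPM (385 counts) in central WT library C. Spp1, which encodes osteopontin, had 542 and 340 counts in endosteal WT libraries B and C and at most 58 in the others. The leukocyte ligands Icam1 and Icam2 were present, at medians of 67.0 and 71.6 CPM. Icam4, an erythroid ligand of leukocyte and beta 1 integrins, had 30, 725, 475 and 343 counts in endosteal WT HSCs and 1, 1, 0 and 0 in the shallower central WT HSCs, which is at or under the floor of 3 counts. It had 254, 236, 207 and 2 counts in the endosteal and 336, 104 and 364 in the central libraries labelled Gfra2-/-. The adjusted p by edgeR was 0.272 between the WT compartments and 0.292 between genotypes in central HSCs, whereas DESeq2 gave adjusted values of 4.4e-05 and 0.000422.

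Icam2 measured 99.6, 71.6, 83.7 and 116 CPM in endosteal and 11.5, 47.3 and 48.8 CPM in central libraries labelled Gfra2-/-, with no overlap (1.37, SE 0.55, adjusted p = 0.999, edgeR), and the estimate was 1.35 without libraries B and D. The erythroid markers, which could accompany Icam4, summed to 7.87 to 649 CPM in the endosteal and 3.80 to 62.8 CPM in the central libraries labelled Gfra2-/-. In the WT libraries these sums were 12.1 to 107 CPM (endosteal) and 11.8 to 69.7 CPM (central), so the genotypes overlapped in both compartments. Icam4 had 2 counts in the library with the highest erythroid sum. The Lin- gate selects against erythroid cells through Ter119, and the part of such cells in the Icam4 values was not tested.

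Among the other receptors of the niche, Alcam, an adhesion molecule of the immunoglobulin family, measured 33.8, 32.1, 29.6 and 9.29 CPM in the endosteal libraries labelled Gfra2-/-. It measured 79.8, 84.4 and 114 CPM in the central ones and 87.2, 77.7, 53.0 and 101 CPM in endosteal WT HSCs, and neither group overlapped the first. These differences were -1.83 (SE 0.52) between compartments and -1.60 (SE 0.51) between genotypes, with adjusted p-values of 0.896 and 0.737 by edgeR and 0.0259 and 0.0387 by DESeq2. Without libraries B and D they were -1.55 and -1.33.

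**Figure D5:**
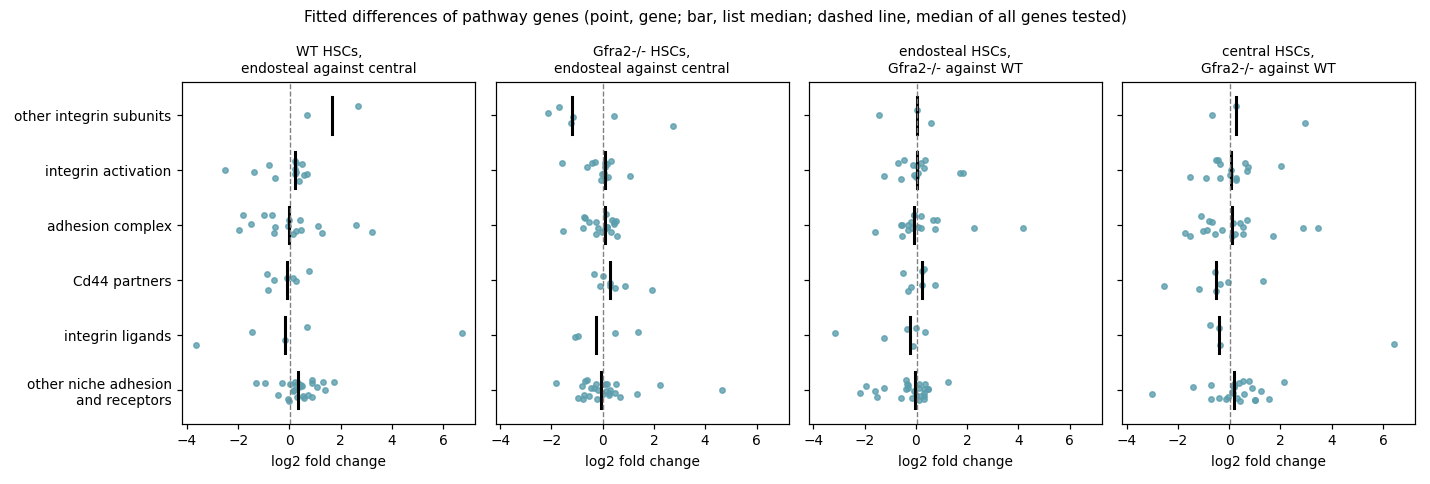
Fitted log2 fold change (horizontal axis) of each tested gene of the 6 lists (rows) in the 4 comparisons, with 1 point per gene, a black bar at the median of the list and a dashed line at the median of all genes tested. The medians of the activation and adhesion complex lists lie between -0.08 and 0.23, and Icam4 is the point beyond 6 among the integrin ligands.

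Finally, the genes whose levels followed Itgb1 and Cd44 most closely were sought among 5575 well-expressed genes over the 15 libraries. For Itgb1 these were Atxn10 (Spearman rho 0.80), Suclg1 (0.796) and Ap1g2 (0.764), and for Cd44 they were Ralgps2 (0.868), B4galnt1 (0.83) and Sdhaf2 (0.804). None of the top 3 of either gene was an integrin. Between Itgb1 and its partners, rho was -0.114 with Itga4, -0.271 with Itga5 and -0.218 with Itga6, and between Itgb1 and Cd44 it was 0.161. With the alpha subunit Itgav it was -0.439, beside a median of 0.018 for Itgb1 over the genes ranked. These values describe 15 libraries that differ in depth and in group, and the leading genes were the extremes of many.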

How the data were processed

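Pools of 30 sorted HSCs were profiled by Smart-seq2, which primes on poly(A) tails, with single-end reads of 50 bases. The deposited values are raw counts per gene, which the authors made with GSNAP on GRCm38 and HTSeq (version 0.5.3p3), per the submitters' processing notes and the study's methods. Reads were counted without regard to strand, and reads that the counting could not give to 1 gene (4.08% to 9.25% of all reads per library) were listed apart as ambiguous. The table holds 46078 genes, 92 spike-in RNAs and 5 summary rows; the latter were kept out of library sizes and tests. Of 16 columns, 15 could be tied to a group, and 1 column not tied to a sample was not used. The columns carry no replicate numbers, so letters only name libraries.

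Counts were tested with the quasi-likelihood test of edgeR (version 4.0.16, R version 4.3.3) in the 2 groups compared, after its filter on low counts and TMM scaling, with Benjamini-Hochberg adjustment over all genes tested and a threshold of 0.1. The interaction of genotype and compartment used all 15 libraries. The SE is the log2 fold change over the square root of its F statistic. The study used DESeq2, which was run as an alternative (version 1.42.0). CPM used TMM-scaled library sizes, a pseudocount of 1 was added on the log2 scale, and levels between genes were divided by merged exon length (GENCODE, GRCm38). The fits were tested on simulated data.

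All 10 members were described. From each pathway list, the genes named were those called, otherwise the 2 with the smallest unadjusted p in a comparison of 2 groups, plus the gene with the highest level; for Itgb1 and Cd44, the 3 genes with the highest Spearman rho were named. Members and lists were chosen with earlier results of these data known. Alternatives covered the test, scaling, filters on low counts, depth, threshold, the libraries of the fit and leaving out each library. Single genes that the rule or the marker lists would name but that are not given in the text are not reported here.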

Additional observations from a re-analysis of the deposited data

Results flagged for a closer look

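In groups of 4 libraries, a library was singled out where its gap to the nearest other library took up most of the range of its group, by Dixon's criterion. The scale was log2(CPM + 1), on which a single high value stands out less than in CPM. Itgb7 at 134 CPM in endosteal WT library A and Itgb2 at 80.6 CPM in central WT library A were therefore not singled out. Of 30 groups examined, 4 held such a library, and chance gives about 1 in 20. That rate does not apply to the 2 Itgal groups, in which 3 of 4 libraries were at 0 and any single value above 0 meets the criterion. Itga5 was at 21.2 CPM in central WT library D, below the other 3. Itgb2 was at 8.43 CPM in endosteal WT library D, also below the other 3. Both of these libraries were low in spike-in reads, and the part of this in the values was not tested. Itgal was at 2.44 CPM in endosteal WT library A and at 1.81 CPM in central WT library A, each beside 3 libraries at 0; the latter value stands for 2 counts and is under the floor of that library.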

How the results depend on the processing

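No paired analysis was possible because the deposited columns are not tied to the replicate numbers of the labels. Central WT libraries were the shallowest, so genes near the floor were the least measurable there. Icam4 measured 7.31 to 48.3 CPM in endosteal WT libraries, above the central WT floors of 0.933 to 4.02 CPM. Itgal was also at 0 in the deeper endosteal WT libraries B, C and D. The part of depth in the values of these 2 genes was not tested. Values below are log2 fold changes unless they are counts of genes called, and the cause of each shift was not tested. DESeq2 called 606 (WT compartments), 395 (compartments, Gfra2-/-), 534 (genotypes, endosteal), 725 (genotypes, central) and 243 genes (interaction), with 2 members in central HSCs, where edgeR called 0. Without a filter on low counts, 58 genes were called between the WT compartments and 134 between genotypes in central HSCs, the latter with 3 members: Itgb3 (-2.42), Itgb7 (3.90) and Itgal. With at least 10 counts in every library these counts were 11 and 29, and central Itga4 turned to 0.022. With thinned counts they were 4 and 16, and central Cd44 turned to -0.0092; with DESeq2 size factors it was -0.0036. With all 4 groups in 1 fit, 22 genes (WT compartments) and 1 gene (endosteal) were called. At a threshold of 0.05, and with only libraries past the quality limits, 0 genes were called in central HSCs.

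Spike-in scaling called 15, 6, 2 and 193 genes (compartments in Gfra2-/-, endosteal, central, interaction). It shifted the median of all genes to 1.58, -0.46, -0.28, 1.75 and -2.18 in the 5 comparisons, in the order given for DESeq2. Relative to that median, Itga5 (0.39), Itgb1 (-0.51) and Itgb2 (0.64) turned between the WT compartments, Itga4 (0.087), Itgb3 (-0.57) and Cd44 (-0.036) between the compartments in Gfra2-/-, Itga5 (-0.16) in endosteal HSCs, Itga4 (0.18) and Itgav (0.68) in central HSCs, and Itga5 (-0.62), Itgb2 (-1.32) and Cd44 (-0.073) in the interaction. With only libraries past the quality limits, Itga6 (0.099), Itgb1 (-0.064), Itgb2 (2.25) and Itgb3 (0.55) turned between the WT compartments, Itgav (0.13) in central HSCs, and Itga5 (-0.14), Itgb2 (-2.35), Itgb3 (-0.51) and Cd44 (-0.55) in the interaction.

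Leaving out the 4 libraries low in spike-in reads, or the 2 endosteal ones with the highest Gfra2 counts, was chosen after seeing the data. The fit with the spike-in split as a term was chosen likewise. With that term, 1 gene was called between the WT compartments, and Itgb2 (0.044, WT compartments), Itgal (0.40) and Itgb3 (-0.87, both compartments in Gfra2-/-), Itgav (0.045) and Cd44 (-0.065, both central), and Itga5 (-0.050) and Itgb2 (-0.89, both interaction) turned. Without the former, 1 gene was called in central HSCs, and Itga6 (0.019, WT compartments), Itgal (1.86) and Itgb2 (0.047, both compartments in Gfra2-/-), Itgb7 (-0.50, endosteal), Itgb1 (0.26) and Cd44 (-0.62, both central), and Itgal (1.39) and Itgb1 (-0.068, both interaction) turned. Without the latter, Itga4 (0.064) and Itga5 (0.25, both compartments in Gfra2-/-), Cd44 (-0.11, endosteal), and Itgb2 (-0.19) and Cd44 (-0.29, both interaction) turned.

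With each library left out in turn, 0 to 6 genes were called between the WT compartments, 0 to 8 in central HSCs and 0 to 0 in the other comparisons, and 0 to 0 members in each. Of these values for members and comparisons, 375 were unchanged in direction and side of the threshold and 60 turned. The ranges that crossed 0 between the WT compartments were -0.018 to 0.45 (Itga4), -0.70 to 0.15 (Itga6), -0.29 to 1.11 (Itgav), -0.58 to 1.62 (Itgb2), -1.23 to 0.23 (Itgb3) and -0.23 to 0.57 (Cd44). Between the compartments in Gfra2-/- they were -0.11 to 0.088 (Itga4), -0.61 to 0.42 (Itga5), -2.88 to 1.44 (Itgal), -1.05 to 0.18 (Itgav), -0.81 to 0.28 (Itgb2), -0.94 to 0.70 (Itgb3) and -1.81 to 0.024 (Itgb7). In endosteal HSCs they were -0.40 to 2.04 (Itgb7) and -0.043 to 0.59 (Cd44). In central HSCs they were -0.38 to 0.60 (Itga5), -1.14 to 0.28 (Itgav), -0.46 to 0.099 (Itgb1) and -0.51 to 0.43 (Cd44). In the interaction they were -0.23 to 0.77 (Itga5), -7.27 to 3.02 (Itgal), -1.76 to 0.44 (Itgb2), -0.69 to 1.20 (Itgb3) and -0.30 to 0.61 (Cd44).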
